A study of Mus musculus with 8 samples.

Results

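The crosslinking and folding enzymes of collagen are described here in 2D and 3D cultures of mouse adipose-derived stem cells (ADSCs). The 10 genes were chosen by symbol for their roles: the lysyl oxidases Lox, Loxl1, Loxl2, Loxl3 and Loxl4, the lysyl hydroxylases Plod1, Plod2 and Plod3, the prolyl 4-hydroxylase subunit P4ha1 and the collagen chaperone Serpinh1. They are 10 of the 24346 genes listed, and all were tested. Total RNA was sequenced from 8 primary cultures of WT BALB/c mice, labelled as mesenchymal stem cells of adipose tissue. According to the methods of the study the mice were 12-week-old males and the tissue was gonadal fat, which was digested with collagenase. The 2D cultures came from mice 2, 3, 4 and 5 and the 3D cultures, grown as organoids in Matrigel (a basement membrane gel), from mice 1, 4, 5 and 7. There was 1 library for each mouse in a culture type, and only mice 4 and 5 were sequenced in both. The medium and passage of the sequenced cultures are not given in the sources used here, and the cells were not sorted by any stated marker, so that the cell types that carried each transcript are not known from the labels.

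Collagen chains are modified while they are made in the endoplasmic reticulum (ER). Prolyl 4-hydroxylase modifies prolines that keep the triple helix stable, lysyl hydroxylases modify lysines that later carry sugars and crosslinks, and the chaperone HSP47, the product of Serpinh1, binds the folded helix and travels with it towards the Golgi. After secretion and removal of the propeptides, lysyl oxidases, which need copper, oxidise lysines and hydroxylysines so that neighbouring collagen or elastin molecules become covalently linked. In adipose tissue these enzymes are best known from stromal and fibroblast-like cells, which make most of the fibrillar collagen.

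Values are normalised FPKM (fragments per kilobase of transcript, scaled to library depth, quantile normalised over the 18862 genes above 0 in any library), which are levels per length. Differences are 3D minus 2D on the log2(FPKM + 1) scale, which understates the change of low genes, and a gene was called when limma's p, adjusted over the 18862 genes, was below 0.05. The steps between low values put the depth between 14.5 M and 17.3 M fragments per library. In every 3D library, several marker genes went against the label of mesenchymal stem cells, but the stem cell markers themselves were divided. Of 5 such markers 2 were lower in 3D, 1 was higher (Ly6a, which encodes Sca-1, by 3.86) and 2 (Cd44 and Nt5e) did not pass. By flow cytometry the study itself found no significant CD90 or CD105 on 3D cells, less CD44, and Sca-1 comparable to 2D cells. Among epithelial proteins it reports more E-cadherin but less EpCAM and ZO-1 in 3D, and CK18 without significant change. It proposes that 3D culture partly promotes a mesenchymal-epithelial transition. Thy1 (CD90), a stem cell marker of this tissue, was between 66.5 and 279 FPKM in 2D and at most 0.0554 FPKM in 3D. The stromal genes Pdgfrb and Dcn were listed at 0 in every 3D library. Lum was also at 0 there, but it was at most 0.988 FPKM in 2D and did not pass. Of 8 stromal markers 7 were lower in 3D (summed level 118 to 305 FPKM in 2D and 4.63 to 8.09 FPKM in 3D). Twist1, among those lower, was still expressed in every 3D library, at 4.59 to 7.99 FPKM. Of 14 epithelial markers 13 were higher in 3D (summed level 32.0 to 694 FPKM in 2D and 2750 to 3218 FPKM in 3D), and Esrp1, Elf3 and Crb3 were listed at 0 in every 2D library. The 2D libraries of mice 3 and 4 stood apart by the mesothelial gene Msln, at 253 and 728 FPKM against 0.388 and 0.286 FPKM in mice 2 and 5. The 3D library of mouse 1 stood apart by its short genes (under 300 nt), which held 53.1% of its deposited FPKM total against 10.1% to 22.4% in the other 3D libraries. In bulk RNA, fewer cells of a type and less RNA per cell cannot be told apart, and the part that these markers and short genes have in the results below was not tested.

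All 10 enzymes were lower in 3D than in 2D cultures (limma's adjusted p between 1.4e-08 and 0.0292). Lower calls made up 20.3% of all genes tested, and 27.5% of those with a mean of at least 1 FPKM. With the criterion of the study, a fold under 0.5 with an unadjusted p below 0.05, 11.0% of genes were called lower, and again 10 of the 10 enzymes were among them. None of the 10 was higher, where 21.2% of all genes were. For 9 of the 10 enzymes the lowest 2D library exceeded the highest 3D library, which was so for 20.9% of all genes. The median difference of the 10 was -4.63, and that of all genes was 0.00. In 3D, Lox, Loxl1 and Serpinh1 included libraries at or under the level that 3 fragments give, and Loxl2, Loxl3 and Loxl4 were low but above it in every library, whereas the lysyl hydroxylases and P4ha1 were still expressed at between 5.08 and 58.5 FPKM. When the mouse was added as a block, the comparison rested on mice 4 and 5 with 1 residual degree of freedom. Under this block 0 of the 10 passed limma's adjusted threshold (adjusted p between 0.111 and 0.200) and 9 of the 10 had an unadjusted p below 0.05.

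**Figure D1:**
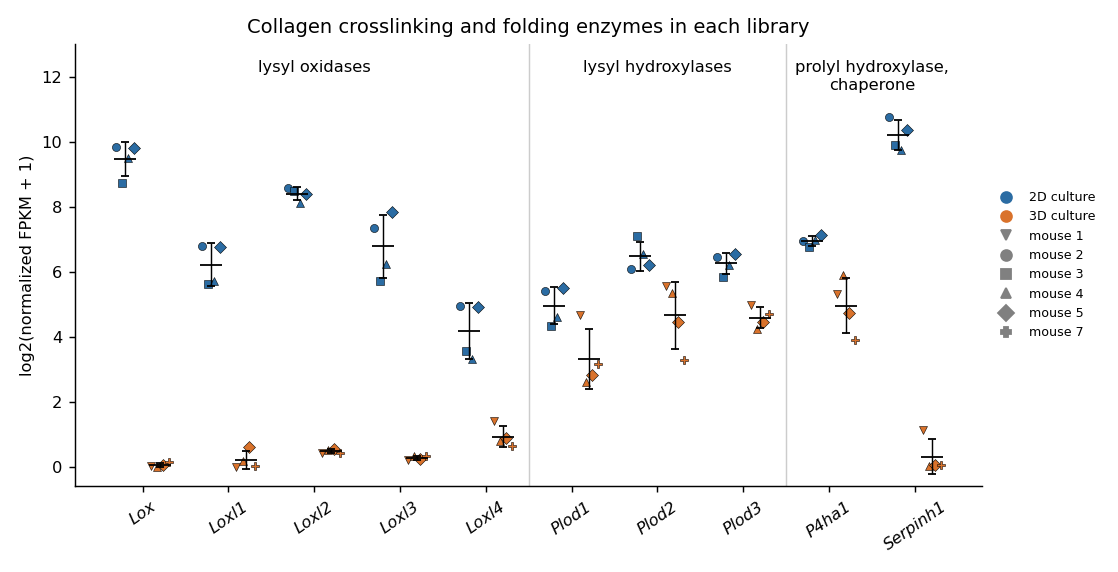
Level of the 10 enzymes in each library, as log2(normalised FPKM + 1) on the vertical axis, with 2D libraries in blue and 3D libraries in orange, 1 symbol per mouse, and the mean with its SD (n = 4) in black. The lysyl oxidases and Serpinh1 lie below 2 in 3D, while the lysyl hydroxylases and P4ha1 remain well above 0, and only Plod1 has a 3D library (mouse 1) within the range of the 2D libraries.

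Lysyl hydroxylases were lower in 3D but still expressed. Plod2 encodes the enzyme known for hydroxylating the telopeptide lysines from which stable crosslinks form (chromosome 9, 92542223 to 92608428, plus strand, GRCm38). Its level was 67.0, 134, 91.8 and 72.6 FPKM in the 2D cultures of mice 2, 3, 4 and 5. In the 3D cultures of mice 1, 4, 5 and 7 it was 46.4, 39.3, 20.7 and 8.71 FPKM. The groups did not overlap, but mouse 1 in 3D came close to mouse 2 in 2D, and the 3D libraries spread over 5.33-fold. The difference was -1.82 (SE 0.50, limma's adjusted p = 0.0215). It did not pass without the 2D library of mouse 3 (-1.61, adjusted p = 0.0535) or without the 3D library of mouse 5 (-1.77, adjusted p = 0.0548), nor when the 2D libraries of mice 3 and 4, with their high mesothelial genes, were left out together (-1.47, adjusted p = 0.126). With mice 4 and 5 alone it was -1.48 (adjusted p = 0.0746).

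Plod1, mutated in a kyphoscoliotic form of Ehlers-Danlos syndrome, lies on chromosome 4 (147909753 to 147936767, minus strand). It was measured at 41.0, 19.0, 23.5 and 43.9 FPKM in the 2D cultures of mice 2, 3, 4 and 5. The 3D cultures of mice 1, 4, 5 and 7 gave 24.5, 5.08, 6.14 and 7.88 FPKM. Here the groups overlapped, since the 3D library of mouse 1 exceeded the 2D libraries of mice 3 and 4. The difference was -1.64 (SE 0.49, limma's adjusted p = 0.0292). Leaving out any of 5 libraries (mouse 2 or 5 in 2D, or mouse 4, 5 or 7 in 3D) raised limma's adjusted p to between 0.0688 and 0.0752, and without the 3D library of mouse 1 the difference was -2.12.

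Plod3 encodes an enzyme that also transfers sugars to hydroxylysine (chromosome 5, 136987019 to 136996648, plus strand). Its 2D levels were 86.5, 56.0, 72.9 and 91.4 FPKM in mice 2, 3, 4 and 5, and its 3D levels were 30.5, 17.7, 21.0 and 24.8 FPKM in mice 1, 4, 5 and 7. Each 2D library was at least 1.84-fold above each 3D library. The difference was -1.67 (SE 0.20, limma's adjusted p = 5.0e-04), nearly the same size as that of Plod1 with less spread between mice. Exons of Plod3 overlap those of Znhit1 on the other strand, and whether the counting used the strand is not given in the sources used here. Znhit1 itself differed by -0.02, with 26.4 to 29.3 FPKM in 2D and 19.7 to 34.2 FPKM in 3D. Summed over the family, lysyl hydroxylase RNA was 188 to 209 FPKM in 2D and 41.4 to 101 FPKM in 3D. The make-up of this sum overlapped between the cultures for each gene: Plod2 held 34.4% to 64.2% of it in 2D and 21.0% to 63.3% in 3D.

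P4ha1 encodes the catalytic subunit of the main collagen prolyl 4-hydroxylase (chromosome 10, 59323296 to 59373304, plus strand). The 2D cultures of mice 2, 3, 4 and 5 were even, at 122, 107, 123 and 139 FPKM. The 3D cultures of mice 1, 4, 5 and 7 were at 38.6, 58.5, 25.3 and 14.0 FPKM. The groups did not overlap, and the 3D libraries spread over 4.19-fold against 1.30-fold in 2D. The difference was -1.99 (SE 0.39, limma's adjusted p = 0.00458). It did not pass with mice 4 and 5 alone (-1.73, limma's adjusted p = 0.0821). P4ha1 was also the only one of the 10 whose unadjusted p under the mouse block exceeded 0.05.

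Serpinh1, which encodes HSP47, fell further than Lox on the log2(FPKM + 1) scale but kept a larger share of its 2D mean over all libraries. The gene lies on chromosome 7 (99345376 to 99353239, minus strand). In 2D its level was 1740, 958, 849 and 1320 FPKM in mice 2, 3, 4 and 5, which placed its mean at rank 81 of 18862 genes. In 3D it was 1.19, 0.0270, 0.0351 and 0.0320 FPKM in mice 1, 4, 5 and 7. The libraries of mice 4, 5 and 7 rest on an estimated 1.2 fragments each, and that of mouse 1 on 57.7, against at least 36581 in 2D. The difference was -9.88 (SE 0.32, limma's adjusted p = 6.8e-07), and 3 of the 18862 genes fell further on this scale. With a pseudocount of 0.1 it was -12.30, against -12.34 for Lox. P4ha1, which acts on the same chains, kept 27.7% of its 2D mean, whereas Serpinh1 kept 0.0264% and Lox 0.00545%. Without the 3D library of mouse 1 (chosen after seeing the data) P4ha1 kept 26.5%, Serpinh1 0.00258% and Lox 0.00621%.

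RefSeq promoters (GRCm38.p6) were at hand for 5 of the 10 genes: Loxl4, Plod1, Plod3, P4ha1 and Serpinh1. The 250 bases upstream of the start are shown for Serpinh1 and Plod1, as examples of a large and a small fall. On the log2(FPKM + 1) scale these were the largest and the smallest of the 10, but with a pseudocount of 0.1 Lox fell further than Serpinh1 (-12.34 against -12.30) and Plod3 less than Plod1 (-1.71 against -1.75). Without the 3D library of mouse 1, Plod3 (-1.82) also fell less than Plod1 (-2.12). No annotated exon lies in either window. Both are on the minus strand and are written from 5′ to 3′ up to the base before the start. Capitals mark each match to a searched motif on either strand: the GC box GGGCGG, the hypoxia response core ACGTG, the CCAAT box CCAAT, the TATA box TATAAA, the TEAD site GGAATG, the heat shock element core GAANNTTC, the AP-1 site TGANTCA and the Snail/Zeb E-box CAGGTG.
Serpinh1, chr7:99353240-99353489: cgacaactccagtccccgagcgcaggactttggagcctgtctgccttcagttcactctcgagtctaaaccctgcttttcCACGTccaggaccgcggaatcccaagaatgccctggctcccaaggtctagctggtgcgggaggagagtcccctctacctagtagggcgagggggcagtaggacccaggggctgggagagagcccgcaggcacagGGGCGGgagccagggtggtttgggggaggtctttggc
Plod1, chr4:147936777-147937026: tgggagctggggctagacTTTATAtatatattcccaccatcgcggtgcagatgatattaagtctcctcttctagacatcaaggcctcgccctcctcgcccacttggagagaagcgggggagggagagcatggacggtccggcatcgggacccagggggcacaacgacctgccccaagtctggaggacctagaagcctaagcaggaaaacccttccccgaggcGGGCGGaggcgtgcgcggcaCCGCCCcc
In the Serpinh1 window a GC box begins at base -37 and a hypoxia response core at base -171 from the start, and in the Plod1 window GC boxes begin at -28 and -8 and a TATA box at -232. The hypoxia response core was also in the windows of Plod3 and P4ha1, and GC boxes were in those of Loxl4 and P4ha1. Over 32851 promoters of the same length, 32.7% held the GC box, 16.6% the hypoxia response core, 33.8% the CCAAT box, 12.4% the TATA box, 12.6% the TEAD site, 6.7% the heat shock element core, 6.7% the AP-1 site and 17.2% the E-box. The TEAD, heat shock, AP-1 and E-box letters were in none of the 5 windows, and a CCAAT box was in that of Plod3 alone. These matches are letters in a window and were not tested as sites.

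The lysyl oxidases act on the secreted collagen. Loxl2, an enzyme known for crosslinking collagen IV of basement membranes, was even across the 2D libraries, at 380, 359, 277 and 331 FPKM in mice 2, 3, 4 and 5. Its 3D levels were 0.356, 0.432, 0.451 and 0.354 FPKM in mice 1, 4, 5 and 7. These are low but rest on an estimated 30.0 to 43.2 fragments per library, and each 2D library was at least 614-fold above each 3D library. The difference was -7.91 (SE 0.11), with the smallest limma's adjusted p of the 10 (1.4e-08). The gene lies on chromosome 14 (69609068 to 69695834, plus strand).

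Lox, the founding member of the family and an enzyme of fibrillar collagen and elastin crosslinking, was the most abundant lysyl oxidase in each 2D library. It was measured at 905, 422, 719 and 888 FPKM in mice 2, 3, 4 and 5, so that its 2D mean was at rank 134 of the 18862 genes. In the 3D libraries of mice 1, 4, 5 and 7 it was at 0.0233, 0, 0.0329 and 0.104 FPKM, or an estimated 0 to 7.5 fragments. The 3D libraries of mice 1, 4 and 5 lay at or under the 0.0432 FPKM that 3 fragments give in the shallowest library. The difference was -9.40 (SE 0.23, limma's adjusted p = 2.1e-07), and 6 genes fell further on this scale.

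Loxl1, known for crosslinking elastic fibres, was at 110, 47.9, 51.1 and 108 FPKM in the 2D cultures of mice 2, 3, 4 and 5 (chromosome 9, 58287738 to 58313186, minus strand). In 3D it was at 0, 0.139, 0.514 and 0.0183 FPKM in mice 1, 4, 5 and 7. The 3D libraries ranged from none to an estimated 28.0 fragments, with mouse 5 highest. The difference was -6.02 (SE 0.32, limma's adjusted p = 8.1e-06).

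Loxl3, a lysyl oxidase with scavenger receptor domains, had 2D levels of 162, 51.9, 73.9 and 226 FPKM in mice 2, 3, 4 and 5, a 4.36-fold spread. Its 3D levels were 0.165, 0.263, 0.176 and 0.262 FPKM in mice 1, 4, 5 and 7. Every 2D library was at least 197-fold above every 3D library. The difference was -6.50 (SE 0.44, limma's adjusted p = 2.6e-05). Exons of Loxl3 (chromosome 6, 83034173 to 83052562, plus strand) overlap those of Htra2 on the other strand, which was at 25.6 to 28.5 FPKM in 2D and 6.28 to 13.1 FPKM in 3D.

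Loxl4, the least abundant of the family in 2D, had the smallest fall. Its levels were 29.5, 10.7, 8.85 and 29.4 FPKM in the 2D cultures of mice 2, 3, 4 and 5 and 1.63, 0.731, 0.841 and 0.570 FPKM in the 3D cultures of mice 1, 4, 5 and 7. The lowest 2D library was 5.44-fold above the highest 3D library. The difference was -3.25 (SE 0.43, limma's adjusted p = 7.0e-04). The gene lies on chromosome 19 (42593982 to 42612813, minus strand).

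As a family, lysyl oxidase RNA summed to 891 to 1586 FPKM in 2D and 1.31 to 2.17 FPKM in 3D. Its make-up differed between the cultures without overlap for Lox and Loxl4. Lox held 47.4% to 63.6% of the sum in 2D and 0% to 7.93% in 3D, and Loxl4 held 0.783% to 1.86% in 2D and 41.8% to 74.9% in 3D. The share of Loxl2 overlapped between the cultures, at 20.9% to 40.2% in 2D and 16.4% to 27.6% in 3D. In 3D these are shares of a very small sum, and the level of Loxl4 itself was lower there.

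**Figure D2:**
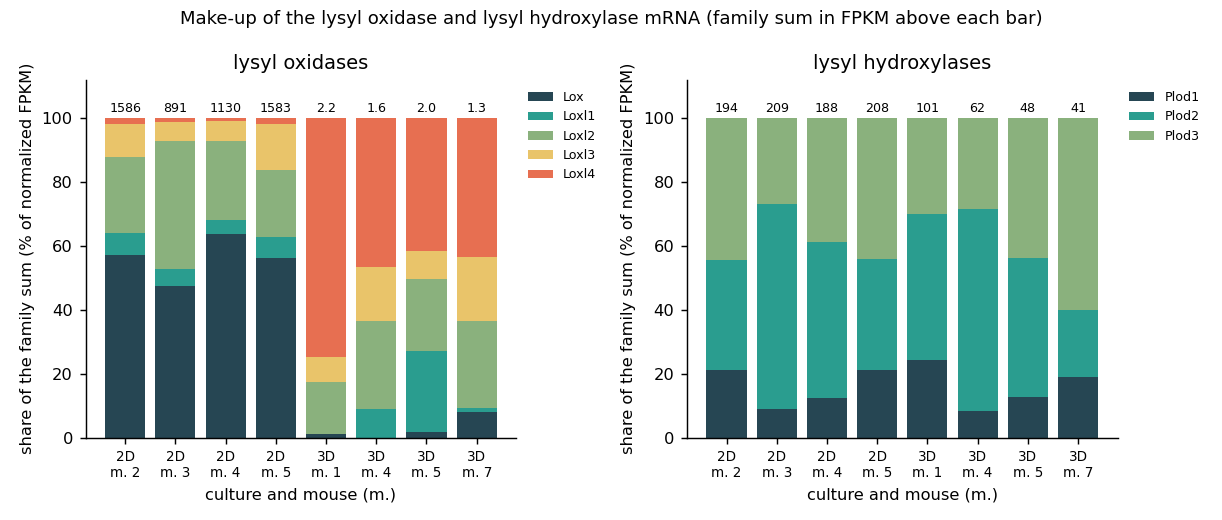
Share of each gene in the summed normalised FPKM of the lysyl oxidases (left) and lysyl hydroxylases (right), in percent, for each 2D and 3D library, with the family sum in FPKM above each bar. Lox is the largest share in all 2D libraries and Loxl4 in all 3D libraries, whereas the shares of Plod1, Plod2 and Plod3 overlap between the cultures.

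**Figure D3:**
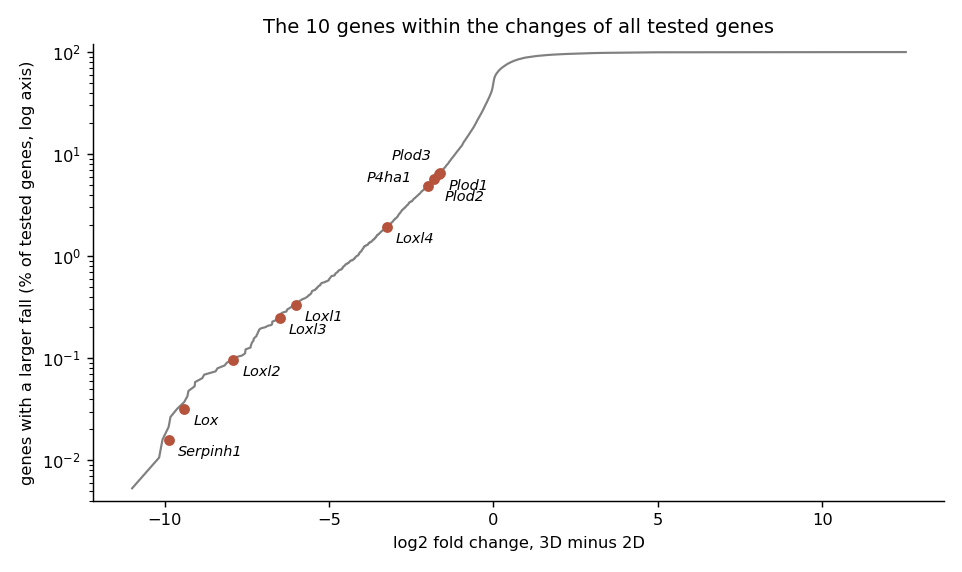
Difference between the cultures (3D minus 2D, log2, horizontal axis) against the percentage of the 18862 genes tested that fell further (vertical axis, log scale), as a line for all genes with the 10 enzymes as red points. Serpinh1 and Lox lie at the lower left, with 0.0159% and 0.0318% of genes falling further, and the lysyl hydroxylases and P4ha1 lie between 4.89% and 6.48%.

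The order of the libraries within a culture type differed between the enzymes. In 2D, mice 2 and 5 were above mice 3 and 4, the libraries with high mesothelial genes, for 7 of the 10 enzymes (Lox, Loxl1, Loxl3, Loxl4, Plod1, Plod3 and Serpinh1), as for 28.1% of all genes tested. Plod2 went the other way, with mice 3 and 4 above mice 5 and 2. In 3D, Plod2 and P4ha1, 2 of the 10 enzymes, had mice 1 and 4 (in either order) above mouse 5, and mouse 7 lowest. This pattern was set after the values of these genes were seen. It was present in 7.45% of all genes and in 11 of 12 oxygen-responsive genes, a list that cells are known to induce in low oxygen. Whether oxygen had a part in these orders was not tested. Egln3, a prolyl hydroxylase that marks HIF for degradation, was at 262, 197, 107 and 23.1 FPKM in the 3D cultures of mice 1, 4, 5 and 7. The glycolytic gene Pgk1 was at 662, 728, 342 and 141 FPKM in the same libraries. Between the cultures, 4 of the 12 oxygen-responsive genes were higher in 3D by limma, where 21.2% of all genes tested were. Of the 12, 0 were lower (0 also at an unadjusted p below 0.05), against 20.3% of all genes, and 8 did not pass. Those higher were Egln3 (4.21), Ankrd37 (2.61), Ndrg1 (1.74) and the glucose transporter Slc2a1 (1.23), by limma's adjusted p below 0.05. Vegfa, Pgk1, Ldha and Bnip3 differed by 0.53, -0.28, -0.12 and 0.14 and did not pass. The orders rest on 4 libraries each and are given as a description.

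**Figure D4:**
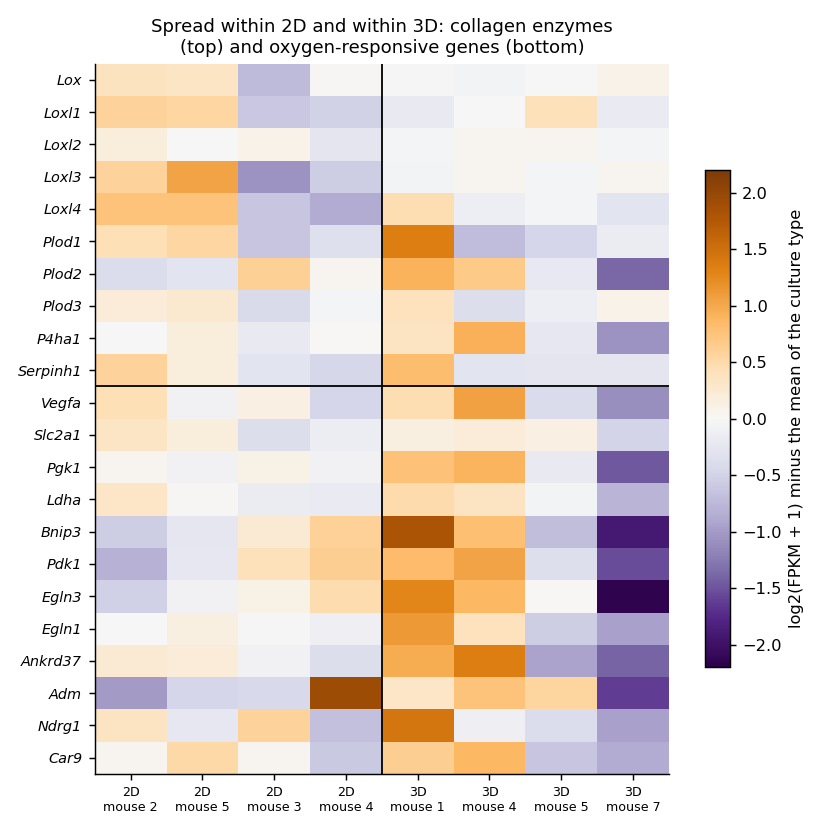
Deviation of each library from the mean of its culture type, in log2(normalised FPKM + 1), for the 10 enzymes (above the line) and the 12 oxygen-responsive genes (below it), with 2D libraries on the left and 3D libraries on the right. Plod2 and P4ha1 share with most oxygen-responsive genes high values in 3D mice 1 and 4 and low values in mouse 7. Plod1 and Plod3 do not show this pattern and have mouse 4 lowest in 3D.

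Other genes of collagen maturation were mostly lower in 3D as well. Of 31 such genes 24 were lower, 1 was higher and 6 did not pass, with a median difference of -2.33. Among the 9 of prolyl hydroxylation, 8 were lower. P4ha3, another catalytic subunit, differed by -3.69, and P3h4, P3h3 and P3h1 of the prolyl 3-hydroxylase family by -3.42, -3.04 and -2.33. P4hb, the protein disulfide isomerase that forms the enzyme together with P4ha1, remained at 216 to 302 FPKM in 3D against 540 to 572 FPKM in 2D. P3h2, which did not pass, differed by 1.24 (limma's adjusted p = 0.0824). Of 8 genes of glycosylation and folding 6 were lower. They included Sparc, a collagen-binding protein, by -10.99, and the collagen foldases Fkbp10, Fkbp7 and Fkbp14 by -7.19, -4.96 and -3.52. Colgalt2 (-0.04) and Tmem38b (0.04) did not pass.

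Of 14 genes of export and propeptide removal 10 were lower in 3D, 1 was higher and 3 did not pass. Pcolce and Pcolce2, which enhance removal of the C-propeptide, differed by -7.54 and -4.97, and Tll1 and Adamts2, propeptide proteases, by -4.11 and -3.93. Bmp1, the main C-propeptidase, remained at 12.6 to 18.9 FPKM in 3D against 107 to 144 FPKM in 2D. The export receptors were divided: Mia2 was higher (2.57), and Mia3 differed by -0.34 and did not pass. Mia2 was at most 0.131 FPKM in 2D and 1.78 to 8.78 FPKM in 3D. Adamts3 and Tll2, at most 0.839 FPKM in any library, differed by -0.33 and 0.00 and did not pass.

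General ER folding genes had a median difference near 0. Of 13 chaperones and oxidases 3 were lower (Calr by -1.02, Pdia3 by -0.62 and Dnajb11 by -0.61), 2 were higher (Ero1lb by 1.79 and Hyou1 by 0.48) and 8 did not pass, with a median of -0.25. Hspa5, the main ER chaperone, was at 425 to 564 FPKM in 2D and 355 to 514 FPKM in 3D. Hsp90b1, Canx and Pdia6 likewise did not pass, with differences of -0.36, 0.15 and -0.56. Serpinh1, the chaperone specific to collagen, thus differed by -9.88 in the same libraries in which Hspa5 differed by -0.25 (limma's adjusted p = 0.235).

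**Figure D5:**
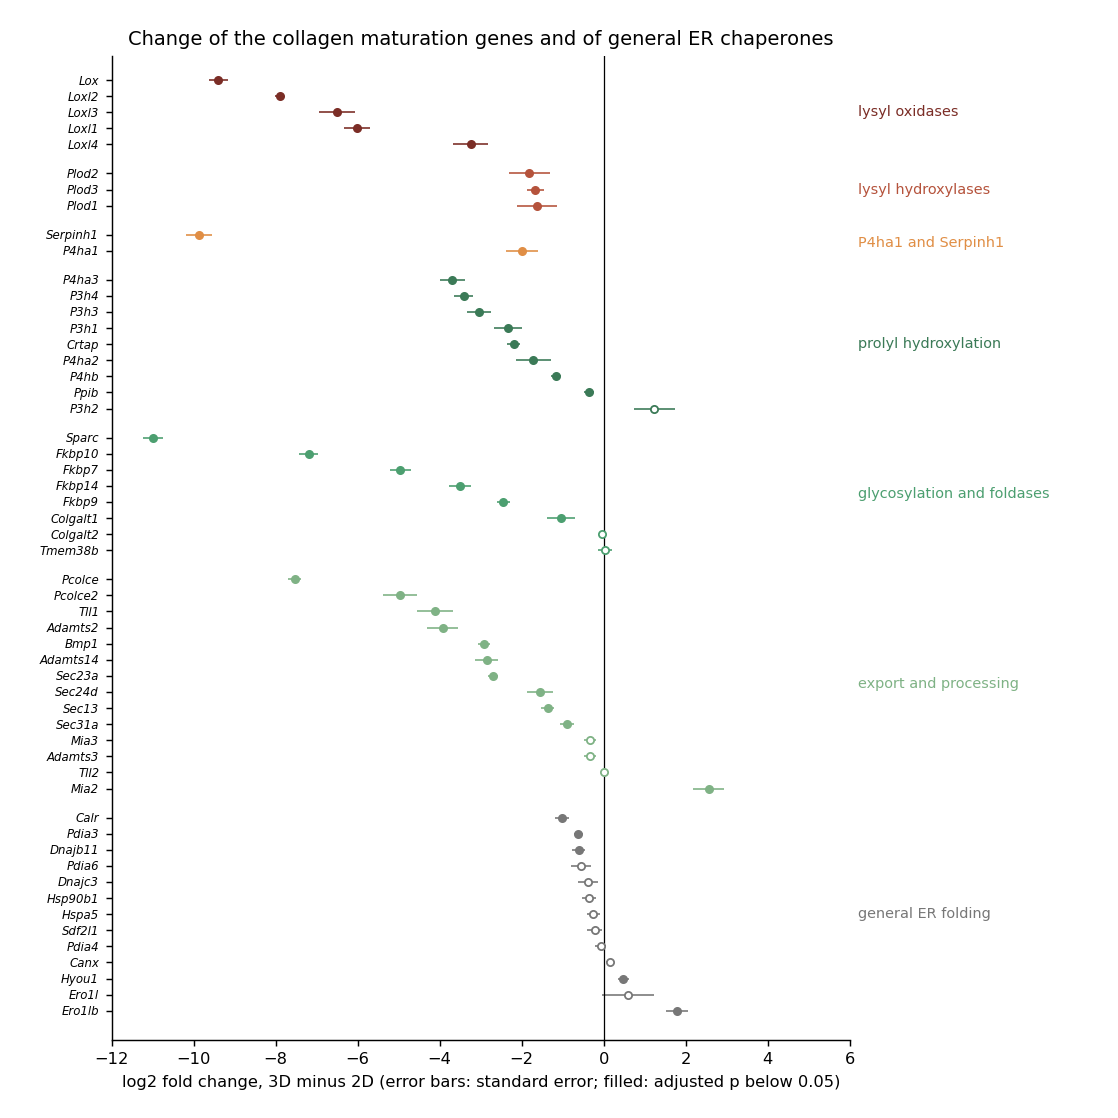
Difference between 3D and 2D cultures (log2, with its standard error) for the 10 enzymes, the 31 other collagen maturation genes and 13 general ER folding genes. Filled points passed limma's adjusted p below 0.05. The enzymes and the other collagen maturation genes lie mostly left of 0. The general ER folding genes lie on both sides of 0, between -1.02 and 1.79, with 3 called lower and 2 higher.

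The substrates and partners of the enzymes were lower in 3D for 13 of 14 genes, with a median difference of -6.88. Col1a2, Postn, Col5a2 and Col1a1 differed by -10.17, -9.07, -8.85 and -8.79, and their 3D levels were at most 0.585 FPKM. The collagen IV genes of basement membranes were lower but still expressed in 3D. Col4a1 was at 510 to 576 FPKM in 2D and 25.5 to 45.2 FPKM in 3D, and Col4a2 at 252 to 291 FPKM in 2D and 16.7 to 28.9 FPKM in 3D. These collagen IV genes were chosen after their values were seen. Eln did not pass (-0.08) and was at most 0.255 FPKM in any library. Of 7 genes of copper, ascorbate and iron supply, cofactors that these enzymes need, 1 was lower, 2 were higher and 4 did not pass. The lower gene of this list, Slc39a13 (-1.73), mutated in a connective tissue disease, is a zinc transporter, and zinc is not one of these cofactors. The copper importer Slc31a1 (0.78) and the copper chaperone Atox1 (0.49) were higher, while Atp7a, which loads copper onto secreted enzymes, differed by 0.51 (limma's adjusted p = 0.155). Tfrc, Slc23a2 and Slc23a1 differed by -0.23, -0.43 and 0.25 and did not pass.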

How the data were processed

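RNA was sequenced from 4 2D and 4 3D cultures after depletion of ribosomal RNA with a directional kit. The authors used FastQC for read quality, FASTX_Trimmer and BBMap for trimming and TopHat for mapping (mm10, per the submitters' processing notes). The deposited FPKM values per gene are those of Cufflinks. The annotation and the strand setting are not given in the sources used here. The upper ends of the deposited values differ between libraries, so they do not include the quantile normalisation that the methods describe, and it was done here.

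Of 24346 genes, 5484 at 0 in every library were left out. The other 18862 were quantile normalised, converted to log2(FPKM + 1) and fitted with limma 3.58.1 in R 4.3.3, with an intensity trend and no covariates. Benjamini-Hochberg adjustment covered the 18862 genes. The p-values measure the spread between these cultures, each of 1 mouse. Depth was estimated from the spacing of low FPKM values in 801 genes whose only GENCODE M21 transcript has 3000 nt or more. Symbols matched that annotation for 95.7% of genes. Between 65.0% and 76.9% of those values lay near a whole multiple, so whole reads were not recovered. Fragment numbers are therefore estimates and cover counting error only. Gene positions are those of GENCODE M21 (GRCm38), and promoters are those of RefSeq. The fit was tested on simulated data with known changes.

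Groups were taken from the sample titles, since the description of the 3D library of mouse 1 does not name its culture type. Same-numbered libraries come from the same mouse, which pairs mice 4 and 5 by the animal. Their 2D and 3D deviations from the culture means correlated at -0.053 (mouse 4) and -0.113 (mouse 5) over 12583 genes. The alternatives were the values as deposited, median ratio scaling, a filter at a mean of 1 FPKM, a pseudocount of 0.1, no intensity trend, the mouse as a block, only mice 4 and 5, each library left out, and the study's fold criterion. Leaving out the 2D libraries of mice 3 and 4 was chosen after seeing the data.

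The 10 genes and all lists were chosen with earlier results of these data known. From each other list, up to 4 genes with the largest fall, up to 4 with the largest rise among those that passed, and up to 4 of the highest mean level among those that did not were named. P4hb, Bmp1, Col4a1, Col4a2 and marker genes outside this rule were named after their values were seen. The lists of stem cell, endothelial, macrophage and adipocyte markers are given with the closing observations.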

Additional observations from a re-analysis of the deposited data

Results flagged for a closer look

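The 3D library of mouse 1 stood apart for Serpinh1. Its 1.19 FPKM, against 0.0270 to 0.0351 FPKM in the other 3D libraries, leaves a gap of 0.99 of the whole range of the group, which is beyond the 95% critical value of Dixon's test for 4 samples. It was the only such value among 20 groups of 4 tested (10 genes in 2 cultures), of which chance marks about 1 in 20. The difference between the cultures for Serpinh1 remained called without this library. The same library was also the highest 3D library for Plod1, Plod2, Plod3 and Loxl4, at 24.5, 46.4, 30.5 and 1.63 FPKM. In this library genes under 300 nt held 53.1% of the deposited FPKM total, against 10.1% to 22.4% in the other 3D libraries. Its total, 1369243 FPKM, was the highest of the 8 libraries. The part of these properties in the values was not tested.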

How the results depend on the processing

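Over 170 recalculations of the 10 enzymes, 150 kept direction and call, 20 lost the call and 0 reversed. The replicate block (the mouse as a block, 1 residual degree of freedom) ended every call: 0 enzymes lower (9 with an unadjusted p below 0.05), 0 of all genes lower or higher by limma (2383 and 2833 unadjusted), and 0 of the other collagen maturation genes lower or higher (22 and 1 unadjusted). The number of enzymes lower was 8 to 10 with 1 library left out, 8 with only mice 4 and 5, and 9 without the 2D libraries of mice 3 and 4. The other lost calls were those of Plod1, Plod2 and P4ha1 described above. Over all genes, only mice 4 and 5 gave 1432 lower and 1788 higher, against 3823 and 4000 in the main fit. The fold criterion of the study, applied to limma's fit, gave 2069 lower and 1990 higher, which are not the study's own counts. The other collagen maturation genes higher in 3D numbered 2 with the values as deposited, with median ratio scaling and with the fold criterion, and 1 to 2 with 1 library left out, 2 of them without the 3D library of mouse 1. The median difference over 12583 expressed genes moved to -0.033 as deposited and -0.039 with median ratio scaling, from -0.003. The size of the fall depends on the pseudocount for the low genes: with 0.1 in place of 1 it was -12.34 for Lox, -12.30 for Serpinh1, -9.40 for Loxl2, -8.49 for Loxl1, -8.44 for Loxl3 and -4.13 for Loxl4. For Plod1, Plod2, Plod3 and P4ha1 it was between -1.71 and -2.03.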

Other observations

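Markers of other cell types did not fall as the enzymes did in every case. Of 5 stem cell markers 2 were lower in 3D (Thy1 by -7.12 and Eng by -3.75), 1 was higher (Ly6a, which encodes Sca-1, by 3.86) and 2 did not pass. Of those that did not pass, Cd44 was at 82.9 to 137 FPKM in 2D and 62.9 to 115 FPKM in 3D. Nt5e, the other, differed by -2.79 (limma's adjusted p = 0.0680). It was at 0.790 to 60.6 FPKM in 2D and 0.0626 to 0.350 FPKM in 3D. At an unadjusted p below 0.05, 3 of the 5 stem cell markers were lower and 1 was higher. Among the 3D cultures Ly6a was at 58.6, 1429, 2473 and 3117 FPKM in mice 1, 4, 5 and 7. Of 6 mesothelial markers 0 were lower by limma (0 also at an unadjusted p below 0.05) and 1 (Krt19, also an epithelial marker) was higher, and the summed level ran from 27.5 to 2111 FPKM in 2D and from 90.1 to 200 FPKM in 3D. Of 4 endothelial markers tested none was called by limma in either direction (1 lower and 0 higher at an unadjusted p below 0.05), and Pecam1 was at most 0.158 FPKM. Of 5 macrophage markers 1 was higher (Cd68, 2.19), with Ptprc at most 0.0779 FPKM. Of 4 adipocyte markers tested 2 were lower (Fabp4 by -3.91 and Lpl by -3.81).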
